A study of Mus musculus with 40 samples.

Results

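The 7 genes described here encode the machinery with which the proximal tubule of the kidney takes up filtered proteins. They were chosen by gene symbol (Lrp2, Cubn, Amn, Dab2, Clcn5, Ocrl and Fcgrt), and all 7 were found among the 55401 genes of the count table. RNA from the renal cortex of 40 individual male C57BL/6J mice was sequenced after depletion of ribosomal RNA. The mice formed 8 groups of 5. Akita mice carried 1 mutated copy of the insulin gene Ins2 and were diabetic, and their WT littermates served as controls. In the ethanol arm, mice of both genotypes received either 10% ethanol in water (the ethanol vehicle) or MitoGamide at 10 mg/kg, a mitochondria-targeted scavenger of reactive dicarbonyls, by daily gavage from 6 to 22 weeks of age. In the water arm, mice of both genotypes received either water or MitoQ, a mitochondria-targeted antioxidant whose dose is not given in the sources used here. The protocol attached to every sample gives ages of 6 weeks at the start and 22 weeks at the end, but it names the ethanol arm alone, and no age is stated for the water arm itself. The Ins2 mutation is in the germline of the Akita mice, so that the diabetes of the animal and the mutated allele cannot be told apart in any comparison of genotypes.

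Megalin, encoded by Lrp2, and cubilin, encoded by Cubn, are large receptors on the brush border that bind albumin, vitamin carriers and other filtered proteins. Cubilin has no membrane span of its own and reaches the surface together with amnionless (Amn), and the adaptor Dab2 couples the tail of megalin to clathrin. Inside the cell, the exchanger CLC-5 (Clcn5) supports the acidification of endosomes, the inositol phosphatase OCRL (Ocrl) acts in their traffic, and the neonatal Fc receptor (Fcgrt) binds albumin and immunoglobulin and carries them back out of the degradative route. Loss of megalin, cubilin, CLC-5 or OCRL is known for the appearance of small proteins in the urine.

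The genes lie on 5 chromosomes of GRCm38. Lrp2 (ENSMUSG00000027070.14, chr2:69424340-69586065, minus strand) and Cubn (ENSMUSG00000026726.10, chr2:13276338-13491813, minus strand) share chromosome 2. Amn (ENSMUSG00000021278.7) is at chr12:111271095-111276426 on the plus strand, Dab2 (ENSMUSG00000022150.16) at chr15:6299788-6440712 on the plus strand, and Fcgrt (ENSMUSG00000003420.8) at chr7:45092990-45103851 on the minus strand. Clcn5 (ENSMUSG00000004317.14, chrX:7153810-7319358, minus strand) and Ocrl (ENSMUSG00000001173.15, chrX:47912387-47965868, plus strand) are on the X chromosome. All 7 are annotated as protein coding. Genes on the other strand overlap Cubn (Gm13270), Dab2 (Gm16311 and the pseudogene Gm18888), Clcn5 (the snoRNA gene Gm26401) and Fcgrt (Gm45669), and the counts of these 4 genes are uncertain to the extent that reads were assigned between partners, since the use of strand in counting is not given in the sources used here.

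Lrp2 and Cubn are shown with their promoters as the genes of the 2 receptors, and Amn because its product forms the receptor complex with cubilin. The sequences are the bases before the annotated gene start, read 5′ to 3′ on the strand of the gene from RefSeq (GRCm38.p6), for which all 7 genes were matched. Capitals mark matches to the motifs searched on both strands, which were GTTAAT (HNF1), CAAAGT (HNF4), CACGTG (E-box, which reads the same on both strands), GGGCGG (GC box, CCGCCC on the other strand) and AGGTCA (PPAR), with no overlap between the matches shown.
Lrp2, chr2:69586066-69586279, minus strand: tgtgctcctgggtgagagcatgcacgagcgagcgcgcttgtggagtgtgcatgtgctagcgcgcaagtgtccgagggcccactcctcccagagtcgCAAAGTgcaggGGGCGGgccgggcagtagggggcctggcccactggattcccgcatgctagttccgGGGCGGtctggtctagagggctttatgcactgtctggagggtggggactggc
Cubn, chr2:13491877-13492126, minus strand: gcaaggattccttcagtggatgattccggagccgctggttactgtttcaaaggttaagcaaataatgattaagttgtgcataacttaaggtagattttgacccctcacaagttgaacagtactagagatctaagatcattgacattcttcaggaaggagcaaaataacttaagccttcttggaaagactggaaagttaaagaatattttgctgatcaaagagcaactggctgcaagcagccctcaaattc
Amn, chr12:111270846-111271094, plus strand: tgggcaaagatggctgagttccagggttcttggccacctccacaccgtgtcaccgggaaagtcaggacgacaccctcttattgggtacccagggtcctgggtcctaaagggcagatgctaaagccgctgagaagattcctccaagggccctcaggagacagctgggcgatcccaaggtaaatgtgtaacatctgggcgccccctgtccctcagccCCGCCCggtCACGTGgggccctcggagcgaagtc
The Lrp2 sequence held 1 CAAAGT at 154 bases and GGGCGG at 143 and 88 bases before the RefSeq start, with a GC content of 65.9% and 13 CpG. The Cubn sequence held none of the 5 motifs, 2 CpG and a GC content of 39.6%. The Amn sequence held CACGTG at 26 bases and CCGCCC at 35 bases before the start, with a GC content of 61.0%. Of 32851 promoter windows of 250 bases, 12.6% held CAAAGT, 32.7% GGGCGG, 6.02% CACGTG, 6.43% GTTAAT and 14.02% AGGTCA on either strand, and the median GC content was 52.4%. Such matches are letters in a window and show no binding.

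The libraries held 9106654 to 24321424 counts. They were less alike in the water arm, where the mitochondrial share of counts ran from 14.3% to 49.2% (20.1% to 35.4% in the ethanol arm) and the summed counts of olfactory receptor genes ran from 447 to 1304 CPM (counts scaled to a common library total), against 249 to 748 CPM in the ethanol arm. In 3 libraries, Akita water replicates 2 and 5 and WT MitoQ replicate 3, more than 40% of the counts were mitochondrial, and the genotype comparisons of the members on water and with MitoQ and the vehicle comparison are also given without them, while the correlations and orders of levels include them. Scaled by TMM, as are the levels below, WT water replicate 1 held 292 CPM of Alb, the albumin gene of the liver. The other libraries held 1.98 to 31.2 CPM of it. Markers of the cell types of the cortex were all detected in every group. On the same TMM scale, the S1 and S2 proximal tubule markers summed to between 6151 and 10125 CPM over the 40 libraries.

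Levels are given as CPM scaled by TMM over the 40 libraries, with mean ± SD over the 5 mice of a group. Lrp2 was the most abundant of the 7, with 6836 ± 427 CPM (n = 5) in WT mice on the ethanol vehicle. Corrected for the length of the longest coding transcript, Lrp2 stood at 442 ± 27.6 CPM per kilobase (n = 5), followed by Cubn at 112 ± 6.74, Dab2 at 80.0 ± 3.27, Fcgrt at 71.8 ± 7.52, Amn at 42.9 ± 5.25, Clcn5 at 22.6 ± 0.400 and Ocrl at 3.20 ± 0.201. Per length, megalin transcripts were thus above those of cubilin, and Amn, whose product is the partner of cubilin, stood below both receptors. The smallest count of a member in any library was 99, for Ocrl in WT mice with MitoQ.

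**Figure D1:**
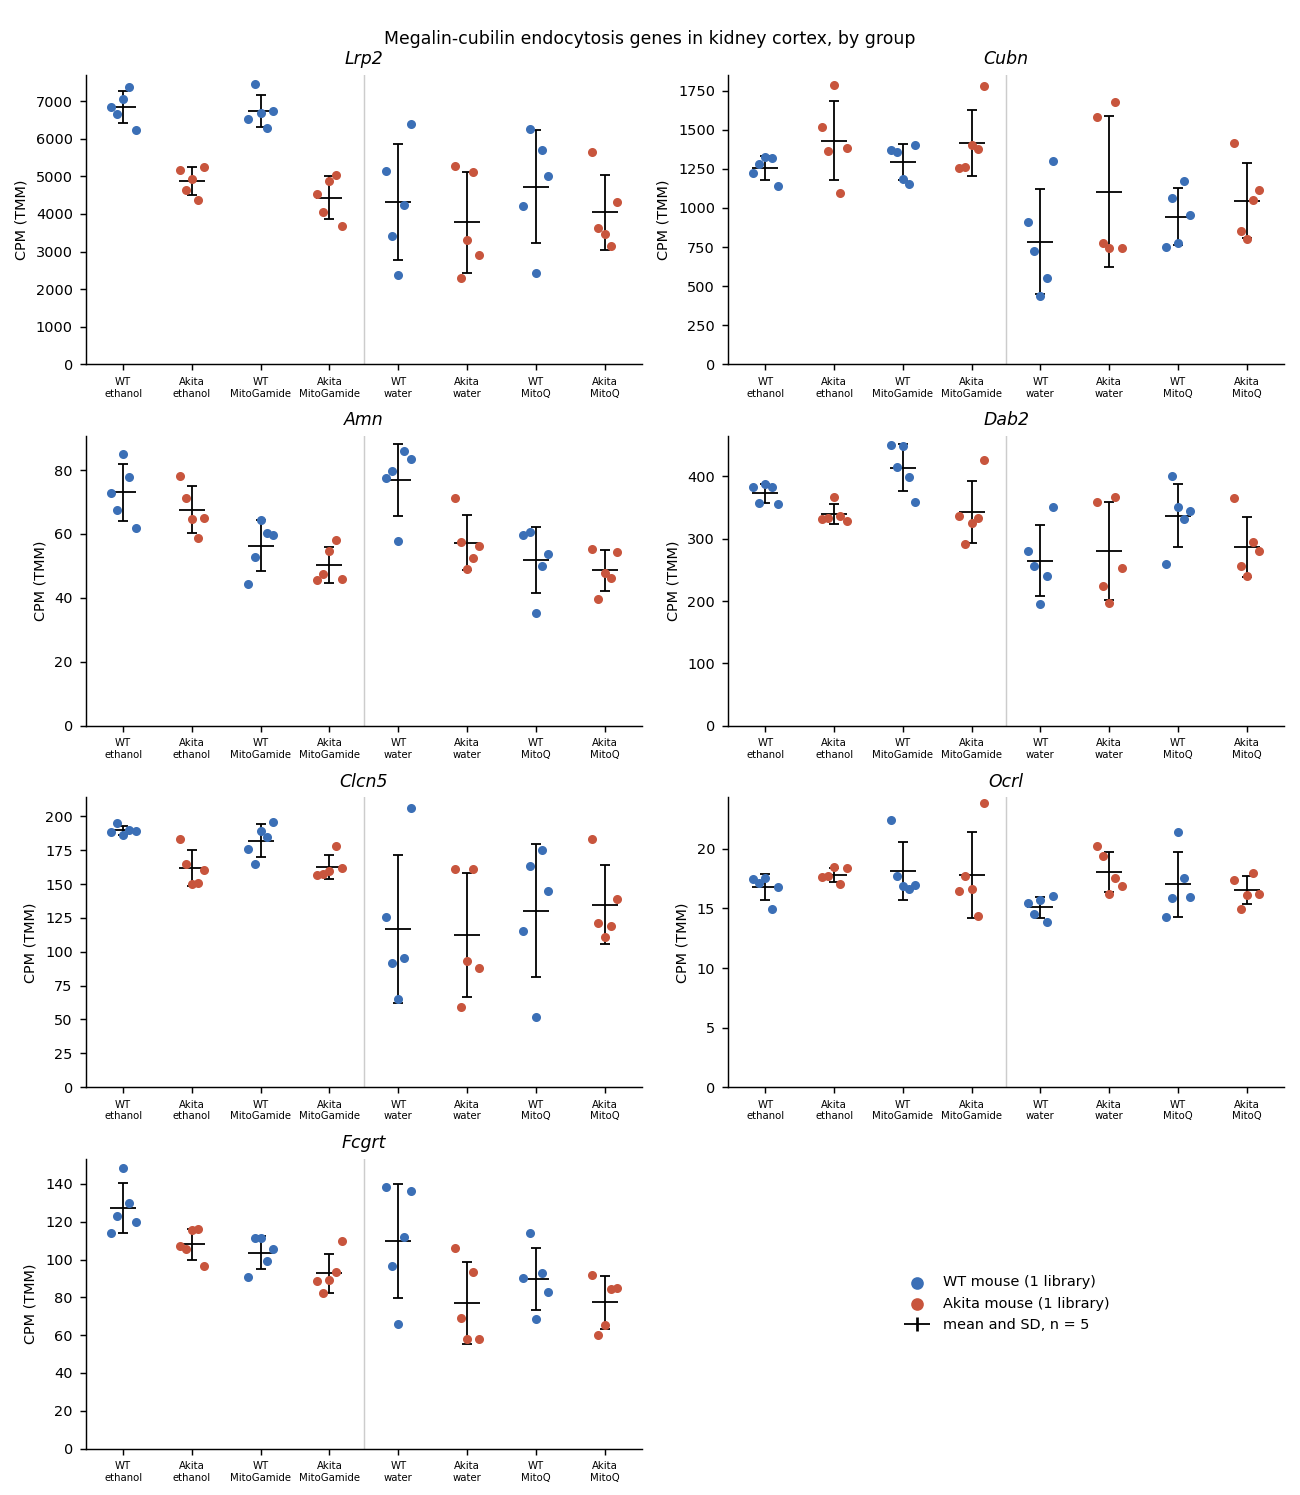
Levels in CPM (TMM-scaled) of the 7 genes in each of the 40 libraries, by group, with the mean and SD of 5 mice (black). The 10 WT libraries of the ethanol arm lie between 6244 and 7450 for Lrp2, all above the 10 Akita libraries of that arm (3674 to 5255), and the water arm is more widely spread.

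Lrp2 was lower in diabetic mice of the ethanol arm. On the ethanol vehicle, the 5 WT mice had 6833, 6655, 7069, 7376 and 6244 CPM and the 5 Akita mice 5175, 4650, 4935, 4360 and 5255 CPM. With MitoGamide, the WT mice had 6527, 7450, 6681, 6292 and 6746 CPM and the Akita mice 4539, 4058, 4875, 5027 and 3674 CPM. In both settings every WT value was above every Akita value. The log2 fold change of Lrp2 (Akita against WT) was −0.47 (SE 0.0957, edgeR adjusted p = 0.00483), or 0.722-fold, on the ethanol vehicle and −0.57 (SE 0.135, adjusted p = 0.0180), or 0.674-fold, with MitoGamide. The call on the ethanol vehicle held without any 1 of the 10 libraries, and that with MitoGamide was lost without Akita MitoGamide replicate 2 (adjusted p = 0.0506). With the olfactory receptor share as a covariate the call with MitoGamide was also lost (log2 fold change −0.74, adjusted p = 0.147), where 111 genes were called in place of 2386. That share was 448 to 748 CPM in WT and 249 to 445 CPM in Akita mice with MitoGamide, without overlap, so that in this fit the covariate and genotype cannot be told apart. The mitochondrial share of counts did not overlap there either, at 24.6% to 27.8% in WT and 28.0% to 35.4% in Akita mice. Its part in the Lrp2 values was not tested. Fitted within all 40 libraries, which shares the spread of the water arm, both calls were lost, at −0.49 (adjusted p = 0.284) on the ethanol vehicle and −0.60 (adjusted p = 0.0834) with MitoGamide.

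In the water arm the Lrp2 values of the genotypes overlapped. WT mice on water had 5147, 3423, 2365, 4246 and 6397 CPM and Akita mice on water 5270, 2296, 3304, 5104 and 2919 CPM. With MitoQ, WT mice had 4225, 6265, 2430, 5710 and 5022 CPM and Akita mice 5651, 3637, 3463, 3156 and 4327 CPM. The spread within a group reached 36.0% of the mean (WT water), against 6.25% in WT mice on the ethanol vehicle. The log2 fold change was −0.19 (SE 0.340, adjusted p = 1.00) on water and −0.23 (SE 0.281, adjusted p = 0.938) with MitoQ, which neither shows nor excludes a difference of the size seen in the ethanol arm. On water the direction turned without the 2 libraries of over 40% mitochondrial counts (0.084) and without WT water replicate 5 (0.025), and with MitoQ the value was −0.40 (adjusted p = 0.497) without the library of over 40%.

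Of the 7 genes, all of which passed the filter of a mean of 10 counts in every comparison, Lrp2 and Clcn5 passed an adjusted p of 0.05 on the ethanol vehicle, both lower in Akita mice. Among all 17747 genes tested there, 16.4% passed in either direction and 8.22% were lower. With MitoGamide 1 of 7 passed (Lrp2), where 14.3% of 16674 genes passed and 6.60% were lower. On water and with MitoQ 0 of 7 passed, where 0.552% and 0.557% of all genes did. At an unadjusted edgeR p under 0.05, Amn was the sole member on water, where 1384 of 18304 genes passed, and there was none with MitoQ, where 1644 of 18143 did. By DESeq2, 0 of 7 passed in either of these comparisons as well, where 354 genes on water and 415 with MitoQ did. By groups that did not overlap, 2 of 7 (Lrp2 and Clcn5) were lower on the ethanol vehicle (6.52% of all genes, 12.7% in either direction) and 1 of 7 (Lrp2) with MitoGamide (5.97%, and 12.8% in either direction), 1 of 7 (Ocrl, log2 fold change 0.26, adjusted p = 0.702) was higher on water, where 0.896% of all genes were higher and 2.51% did not overlap in either direction, and 0 of 7 with MitoQ (2.85%).

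Clcn5, the endosomal exchanger mutated in Dent disease, was steady in WT mice on the ethanol vehicle at 188.5, 195, 186, 189.6 and 189 CPM, against 183, 165, 150.3, 150.6 and 160.3 CPM in Akita mice. All 5 Akita values were lower, with the nearest of them, 183, just under the lowest WT value of 186. The log2 fold change was −0.21 (SE 0.0630, adjusted p = 0.0355). With 1 library left out at a time, this call was lost in 8 of 10 fits (adjusted p 0.0579 to 0.0860). It was kept without Akita ethanol replicate 1 or WT ethanol replicate 3, so that it lies at the threshold. The call was also lost with the replicate block (adjusted p = 0.0526), without the filter (0.0897) and within all 40 libraries (log2 fold change −0.23, 0.761). With MitoGamide the Clcn5 values were 176, 165, 189, 185 and 195.5 CPM in WT mice and 157, 157, 159, 178 and 162 CPM in Akita mice, a log2 fold change of −0.13 (adjusted p = 0.264). In the water arm the log2 fold change of Clcn5 was −0.06 (SE 0.349, adjusted p = 1.00) on water and 0.04 (SE 0.276, adjusted p = 0.996) with MitoQ, and without the libraries of over 40% mitochondrial counts it was 0.25 and −0.16.

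Fcgrt, whose product salvages albumin, was lower in Akita mice over all 40 libraries. In the main fit of each of the 4 settings it missed the edgeR threshold. On the ethanol vehicle it stood at 114, 123, 149, 129.9 and 119.7 CPM in WT mice and 107, 105, 116, 116 and 96.4 CPM in Akita mice. On water it stood at 138, 96.8, 66.1, 112 and 136 CPM in WT mice and 106, 69.2, 58.1, 93.6 and 57.8 CPM in Akita mice. The groups overlapped in both settings. The log2 fold changes were −0.22 (ethanol vehicle, adjusted p = 0.0702), −0.13 (MitoGamide, adjusted p = 0.343), −0.51 (water, adjusted p = 0.704) and −0.22 (MitoQ, adjusted p = 0.839). On the ethanol vehicle DESeq2 gave an adjusted p of 0.0476, and edgeR one of 0.0422 with the replicate block and 0.0494 without WT ethanol replicate 1. Without the libraries of over 40% mitochondrial counts Fcgrt was at −0.35 (adjusted p = 0.998) on water and −0.30 (adjusted p = 0.413) with MitoQ.

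Cubn passed the test in none of the 4 settings. On the ethanol vehicle the WT mice had 1224, 1278, 1326, 1317 and 1142 CPM and the Akita mice 1520, 1363, 1785, 1097 and 1383 CPM. On water the WT mice had 909.7, 728, 438, 553 and 1297 CPM and the Akita mice 1580, 777, 741, 1679 and 746 CPM. The Akita mean was the higher in all 4 settings, but the groups overlapped in each and no test was passed, with log2 fold changes of 0.20 (adjusted p = 0.258), 0.16 (0.367), 0.49 (0.967) and 0.15 (0.943) on the ethanol vehicle, MitoGamide, water and MitoQ. Without the libraries of over 40% mitochondrial counts it was at 0.77 (0.998) on water and 0.084 (0.927) with MitoQ. With 1 library left out at a time the values of Cubn stayed above 0 but ranged from 0.12 (without Akita ethanol replicate 3) to 0.29 on the ethanol vehicle, from 0.074 (without Akita MitoGamide replicate 5) to 0.20 with MitoGamide, from 0.29 (without Akita water replicate 4) to 0.78 (without WT water replicate 5) on water, and from 0.025 (without Akita MitoQ replicate 1) to 0.24 (without WT MitoQ replicate 4) with MitoQ.

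Amn, the carrier of cubilin, was at 73.0, 67.4, 84.9, 77.9 and 62.0 CPM in WT and 78.1, 71.3, 64.6, 58.8 and 65.2 CPM in Akita mice on the ethanol vehicle, which overlapped. On water it was at 77.6, 79.7, 57.8, 86.0 and 83.4 CPM in WT and 71.4, 57.5, 49.1, 52.5 and 56.1 CPM in Akita mice, where 4 of 5 Akita values were below the lowest WT value. Its log2 fold changes were −0.09, −0.13, −0.42 and −0.10 in the 4 settings, with adjusted p from 0.445 to 0.962, and −0.40 on water and −0.21 with MitoQ without the libraries of over 40% mitochondrial counts. On the ethanol vehicle Dab2 was at 373 ± 15.3 CPM in WT and 339 ± 15.8 CPM in Akita mice and Ocrl at 16.8 ± 1.06 and 17.8 ± 0.598 CPM (n = 5 each). Neither passed the test in any setting, with adjusted p of 0.136 or more for Dab2 and 0.325 or more for Ocrl. Without Akita MitoGamide replicate 5, Dab2 passed as lower with MitoGamide (log2 fold change −0.33, adjusted p = 0.0231). Without the libraries of over 40% mitochondrial counts, Dab2 was at 0.22 (adjusted p = 0.998) on water and −0.22 (0.630) with MitoQ, and Ocrl at 0.26 (0.998) and 0.05 (0.908).

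**Figure D2:**
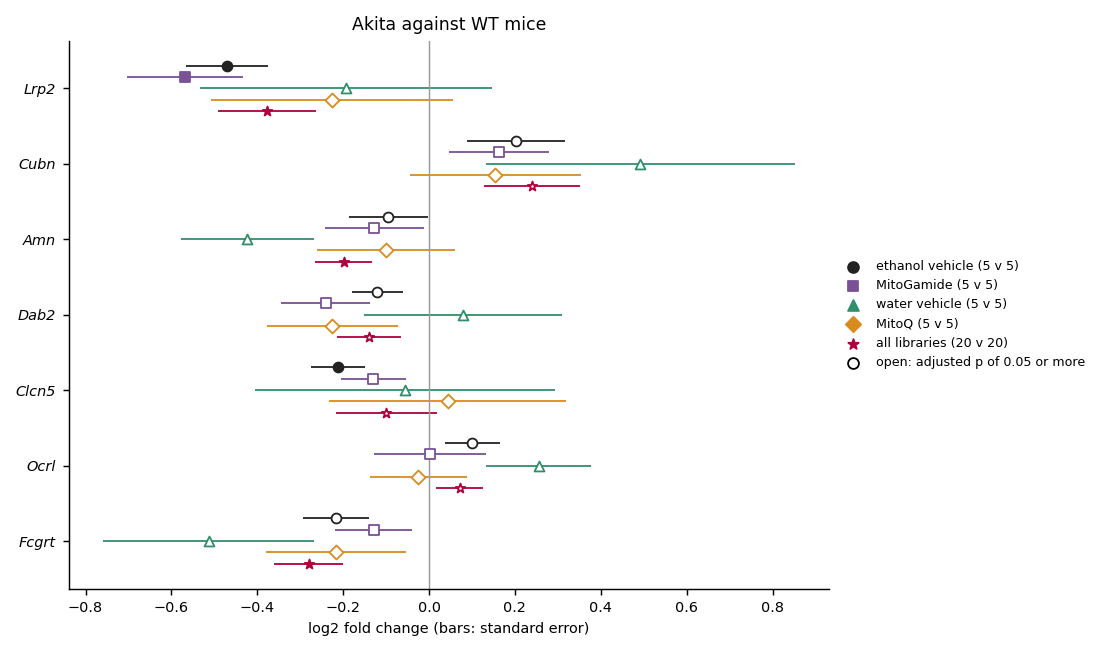
Log2 fold change of Akita against WT mice (horizontal axis, bars are standard errors) for each gene in the 4 settings and over all 40 libraries, with filled symbols where the adjusted p was under 0.05. Lrp2 is filled on the ethanol vehicle (−0.47), with MitoGamide (−0.57) and over all libraries (−0.38), and the bars of the water arm are the widest.

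In 1 fit of all 40 libraries with the treatment group as a term, 3 of 7 genes were lower in Akita mice and none was higher, where 22.8% of 17769 genes passed and 11.8% were lower. Lrp2 had a log2 fold change of −0.38 (SE 0.114, adjusted p = 0.0129), Fcgrt of −0.28 (SE 0.0813, adjusted p = 0.00917) and Amn of −0.20 (SE 0.0665, adjusted p = 0.0253). Cubn was at 0.24 (adjusted p = 0.125), Dab2 at −0.14 (0.188), Clcn5 at −0.10 (0.609) and Ocrl at 0.07 (0.387), beside a median of −0.02 over all genes tested. Over the 20 WT and 20 Akita libraries, the lowest, median and highest values were 2365, 6279 and 7450 CPM against 2296, 4449 and 5651 CPM for Lrp2, and 66.1, 111 and 149 CPM against 57.8, 90.6 and 116 CPM for Fcgrt. The highest Akita value of both genes lay below the highest WT value, and the low ends overlapped. Without the filter on low counts all 3 calls were lost (adjusted p = 0.0809 for Lrp2, 0.0657 for Fcgrt and 0.160 for Amn). With 1 library left out at a time, Lrp2 and Fcgrt kept their calls in 40 of 40 fits, and Amn lost its call in 13, namely without replicate 3 of Akita ethanol, 2, 3 or 5 of Akita water, 1 or 5 of Akita MitoGamide, 2 of Akita MitoQ, 3 of WT ethanol, 4 of WT water, 2, 3 or 4 of WT MitoGamide and 2 of WT MitoQ (adjusted p 0.0504 to 0.0789). The 3 calls were lost without the ethanol vehicle mice (adjusted p = 0.188 for Lrp2, 0.0794 for Fcgrt and 0.113 for Amn), while without the MitoGamide mice Fcgrt kept its call (0.04998) and Lrp2 (0.225) and Amn (0.116) did not. Without the water mice Amn alone of the 3 was lost (0.160) and Dab2 passed as lower (log2 fold change −0.22, 0.00751).

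Without the 3 libraries of over 40% mitochondrial counts, the values of this fit were −0.35 (adjusted p = 0.00986) for Lrp2, −0.23 (0.0258) for Fcgrt and −0.18 (0.0331) for Amn, and Cubn passed as higher at 0.30 (0.0489). With the olfactory receptor share as a covariate they were −0.47 (0.000749) for Lrp2, −0.37 (6.12e-05) for Fcgrt and −0.26 (0.000967) for Amn, and Dab2 passed as lower at −0.20 (0.0282). Both of these fits were added after the data were seen. In bulk tissue, fewer cells of a type and less RNA per cell cannot be told apart. Markers were read in the main fit of all 40 libraries, where 22.8% of 17769 genes passed and 11.8% were lower. Markers of several cell types passed there beside these genes. Of those of the S3 segment of the proximal tubule, 4 of 5 were lower and 1 was higher over the 40 libraries (median log2 fold change −1.31). They summed to 1567 to 2586 CPM in WT and 758 to 1017 CPM in Akita mice on the ethanol vehicle, with no marker at 0. The S1 and S2 markers, with 1 of 9 higher and 1 lower, summed to 7883 to 10125 CPM in WT and 6861 to 9779 CPM in Akita mice on the ethanol vehicle. Other markers passed as higher or lower in 0 and 1 of 4 for the thick ascending limb, 1 and 0 of 3 for the distal convoluted tubule, 3 and 0 of 4 for principal cells (median 0.43), 0 and 0 of 5 for intercalated cells, 3 and 0 of 5 for podocytes (median 0.29), 2 and 1 of 5 for endothelium, 0 and 2 of 6 for macrophages, 0 and 0 of 1 tested for lymphocytes, 2 and 0 of 4 for fibroblasts and 1 and 0 of 2 tested for injured proximal tubule. The part of these cell types in the lower Lrp2, Fcgrt and Amn was not tested.

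The count of Lrp2 per count of Cubn compares the 2 receptors within a library, free of the scaling between libraries. It was chosen after the values of both genes had been seen, and is given as a description with no test. On the ethanol vehicle it was 5.58, 5.21, 5.33, 5.601 and 5.47 in WT mice and 3.40, 3.41, 2.76, 3.97 and 3.798 in Akita mice. With MitoGamide it was 4.76, 5.50, 5.65, 5.47 and 4.81 in WT mice and 3.61, 3.22, 3.47, 3.65 and 2.07 in Akita mice. On water, where Lrp2 alone overlapped between the genotypes, it was 5.66, 4.71, 5.40, 7.68 and 4.93 in WT mice and 3.33, 2.96, 4.46, 3.04 and 3.91 in Akita mice. In these 3 settings all Akita values were below all WT values. The levels of single genes did not overlap there in 12.7%, 12.8% and 2.51% of all genes tested. How often the ratios of other gene pairs separate the genotypes was not computed.

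With MitoQ the ratio was 5.65, 5.87, 3.13, 4.88 and 5.27 in WT mice and 3.996, 4.25, 4.31, 3.01 and 3.89 in Akita mice. The sole WT value inside the Akita range, 3.13, was that of WT MitoQ replicate 3, the library with 49.2% mitochondrial counts. Over the series, the WT libraries ran from 3.13 to 7.68 (median 5.43) and the Akita libraries from 2.07 to 4.46 (median 3.54), and apart from that library the lowest WT ratio was 4.71. Means were 5.44 ± 0.168 and 3.47 ± 0.466 (SD, n = 5) on the ethanol vehicle and 5.68 ± 1.18 and 3.54 ± 0.636 on water, WT before Akita.

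The log2 difference of the ratio (Akita minus WT) was −0.66 on the ethanol vehicle, −0.74 with MitoGamide and −0.68 on water. On water it was −0.65 without Akita water replicates 2 and 5. With MitoQ the difference was −0.33, and −0.49 without WT MitoQ replicate 3, after which the groups did not overlap. In the drug comparisons of the ratio all groups overlapped. The log2 difference against the vehicle was −0.13 (Akita) and −0.06 (WT) for MitoGamide and 0.14 (Akita) and −0.21 (WT) for MitoQ.

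**Figure D3:**
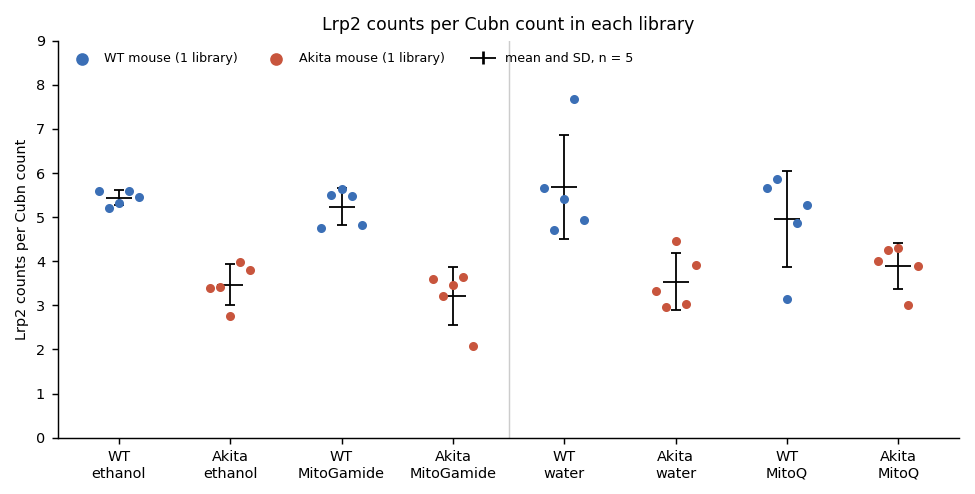
Lrp2 counts per Cubn count in each of the 40 libraries (vertical axis, no unit), by group, with the mean and SD of 5 mice (black). The Akita libraries lie between 2.07 and 4.46, and 19 of the 20 WT libraries lie at 4.71 or above.

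Lrp2 and Cubn have long transcripts (15460 and 11262 bases for the longest coding ones), and the other 5 genes have 1701 to 8390 bases. Genes with transcripts of 10000 bases or more had a median log2 fold change (Akita against WT) of −0.04 on the ethanol vehicle, −0.08 with MitoGamide, 0.08 on water, −0.04 with MitoQ and −0.03 over all 40 libraries (367 to 382 genes). The medians over all genes were −0.0021, 0.010, 0.0022, −0.0014 and −0.02. The part of transcript length in the values of Lrp2 and Cubn was not tested.

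By edgeR neither drug gave a call in the 7 genes. With MitoGamide in Akita mice 0 of 7 passed, where 1.26% of 17051 genes did, and DESeq2 called 1 of 7 (Amn) and 1069 genes against 214 by edgeR. With MitoGamide in WT mice 0 of 7, where 0% of 17395 genes did by edgeR, 1841 of them had an unadjusted p under 0.05 and DESeq2 called 74. With MitoQ 0 of 7 passed in Akita mice and in WT mice, where again 0% of all genes passed by edgeR (363 and 575 with an unadjusted p under 0.05, and 0 and 2 called by DESeq2). Lrp2 changed by a log2 of −0.13 (SE 0.129) in Akita and −0.02 (SE 0.0947) in WT mice with MitoGamide, and by 0.10 (SE 0.286) and 0.13 (SE 0.333) with MitoQ. In Akita mice the MitoQ value turned to −0.16 (SE 0.285) without the libraries of over 40% mitochondrial counts. The low Lrp2 of Akita mice on the ethanol vehicle was thus also seen in Akita mice given MitoGamide, at 4875 ± 372 and 4434 ± 565 CPM (n = 5 each).

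Amn had the lowest log2 fold change of the 7 genes in all 4 drug comparisons, and it passed none of these edgeR tests. With MitoGamide it was at 45.7, 47.5, 54.6, 58.2 and 45.8 CPM in Akita mice, all under the lowest Akita value on the ethanol vehicle (58.8), the nearest by less than 1 CPM. In this comparison 1 of 7 genes did not overlap as lower, as did 2.95% of all genes, with 7.55% in either direction. In WT mice it was at 44.2, 52.9, 64.5, 60.4 and 59.6 CPM with MitoGamide, which overlapped with the vehicle. The log2 fold change of Amn was −0.41 (SE 0.101, adjusted p = 0.0611) in Akita and −0.38 (SE 0.106, adjusted p = 0.310) in WT mice with MitoGamide, and −0.23 (SE 0.138, adjusted p = 0.999) and −0.56 (SE 0.171, adjusted p = 1.00) with MitoQ. Without the libraries of over 40% mitochondrial counts the MitoQ values were −0.24 and −0.45 (adjusted p 0.9998 and 0.946). In Akita mice DESeq2 gave the MitoGamide change an adjusted p of 0.00832, and edgeR one of 0.0487 without Akita MitoGamide replicate 5.

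Fcgrt was at 88.7, 82.4, 89.3, 93.5 and 109.7 CPM in Akita mice with MitoGamide and at 90.8, 111, 111, 99.5 and 105 CPM in WT mice with it. All 5 WT values were below the lowest on the ethanol vehicle (114), the 1 of 7 genes not overlapping there as lower, where 1.13% of all genes were, with 2.27% in either direction. The log2 fold change of Fcgrt with MitoGamide was −0.22 (adjusted p = 0.171) in Akita and −0.30 (adjusted p = 0.310) in WT mice, and in Akita mice the adjusted p was 0.0481 without Akita MitoGamide replicate 5. With MitoQ 0 of 7 genes had groups that did not overlap, as against 0.314% of all genes in Akita and 0.928% in WT mice. The test of whether a drug effect differed between the genotypes gave 0 of 7 calls for MitoGamide and 0 of 7 for MitoQ, where 0% of all genes passed (1435 and 207 with an unadjusted p under 0.05, and 0 and 1 called by DESeq2). The difference for Amn was −0.04 (SE 0.152) for MitoGamide and 0.32 (SE 0.220) for MitoQ.

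**Figure D4:**
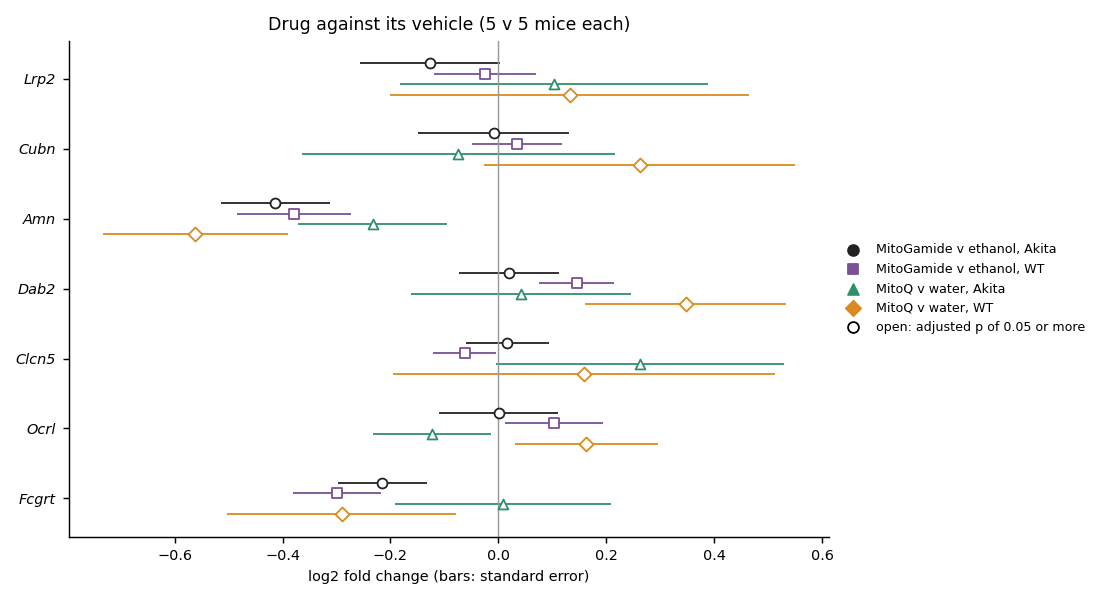
Log2 fold change of each drug against its vehicle (horizontal axis, bars are standard errors) for the 7 genes, in Akita and in WT mice. All symbols are open, since no adjusted p was under 0.05, and those of Amn lie between −0.56 and −0.23.

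In the main fit, the level of 5 of the 7 genes differed between the vehicle mice of the ethanol and water arms. Among the 20 vehicle mice, with genotype as a term, 5 of 7 were higher on the ethanol vehicle than on water, where 21.5% of 18050 genes were higher and 45.8% passed in either direction. The log2 fold changes were 0.63 for Clcn5 (adjusted p = 0.0136), 0.55 for Cubn (0.0292), 0.54 for Lrp2 (0.0217), 0.41 for Dab2 (0.0135) and 0.37 for Fcgrt (0.0308), and 0.11 for Amn (0.345) and 0.09 for Ocrl (0.202). Without the libraries of over 40% mitochondrial counts Clcn5 alone passed (0.51, adjusted p = 0.0497), where 3133 genes passed in place of 8267. Lrp2 was then at 0.43 (0.0780), Cubn at 0.44 (0.101), Dab2 at 0.36 (0.0530), Fcgrt at 0.28 (0.125), Amn at 0.07 (0.613) and Ocrl at 0.10 (0.252), so that the 4 lost calls kept their direction. With the olfactory receptor share as a covariate 0 of 7 passed, with values from −0.13 to 0.14, and 0 of all genes passed by edgeR (836 with an unadjusted p under 0.05). The share was 401 to 676 CPM on the ethanol vehicle and 447 to 1304 CPM on water over both genotypes. Cubn and Fcgrt also lost their calls without Akita water replicates 2, 3 or 5 or WT water replicate 3, Cubn without WT water replicate 4 and Fcgrt without WT ethanol replicate 3 (adjusted p 0.0526 to 0.0616). The vehicles were given in separate arms, so that vehicle and arm cannot be told apart.

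Over all 40 libraries, the members other than Ocrl ran against the olfactory receptor share of the library within groups. In the ethanol arm Dab2 did not. After group means were removed, the correlation over the 40 libraries, which share their arms and depths, was −0.72 for Cubn, −0.68 for Lrp2, −0.64 for Clcn5 and Fcgrt, −0.63 for Dab2, −0.57 for Amn and 0.01 for Ocrl. In the water arm alone it was −0.88 for Dab2, −0.86 for Cubn, −0.78 for Lrp2, −0.77 for Fcgrt, −0.72 for Clcn5, −0.52 for Amn and −0.23 for Ocrl. In the ethanol arm it was −0.66 for Amn, −0.50 for Clcn5, −0.36 for Lrp2, −0.25 for Cubn, −0.20 for Fcgrt, 0.22 for Dab2 and 0.31 for Ocrl. Members other than Ocrl also varied with each other in the water arm. There Lrp2 and Clcn5 had a correlation of 0.97 after group means were removed, Cubn and Dab2 of 0.91 and Lrp2 and Cubn of 0.83. The lowest of these pairs was Amn and Dab2 at 0.38. Ocrl was at −0.19 with Lrp2 and Clcn5, −0.29 with Amn, 0.11 with Fcgrt, 0.28 with Cubn and 0.40 with Dab2. In the ethanol arm Lrp2 and Clcn5 were at 0.17, Cubn and Dab2 at 0.49 and Lrp2 and Cubn at 0.12. Some other pairs differed less between the arms, such as Amn and Clcn5 (0.60 in the ethanol and 0.64 in the water arm). So did Lrp2 and Amn (0.50 and 0.68) and Dab2 and Ocrl (0.59 and 0.40). Others differed more, among them Lrp2 and Dab2 (−0.23 and 0.70) and Lrp2 and Fcgrt (−0.10 and 0.83). The part of RNA quality in these values was not tested.

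**Figure D5:**
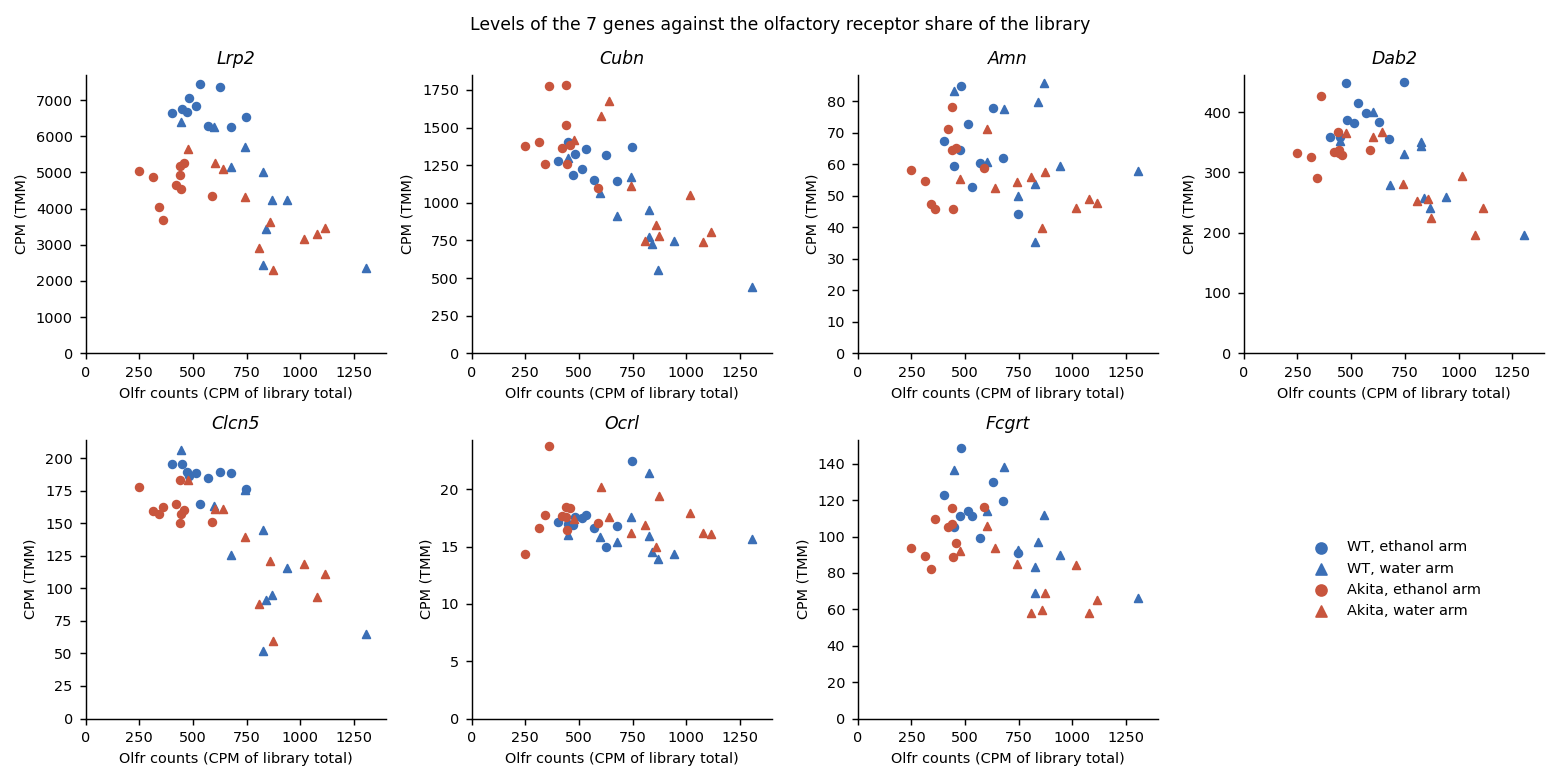
Levels in CPM (TMM-scaled) of each gene against the summed CPM of olfactory receptor genes of the library, by genotype (colour) and arm (symbol). Libraries of the water arm (triangles) reach 1304 on the horizontal axis, where Lrp2, Cubn, Dab2, Clcn5 and Fcgrt are low, while Ocrl stays between 13.9 and 23.8.

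Over the 8 groups, mean Lrp2 fell in the order WT ethanol, WT MitoGamide, Akita ethanol, WT MitoQ, Akita MitoGamide, WT water, Akita MitoQ and Akita water, from 6836 to 3779 CPM. The step from WT MitoGamide to Akita ethanol was the 1 of 7 between neighbours whose values did not overlap. Cubn ran from 1430 CPM in Akita ethanol to 785 in WT water, and no neighbours in its order differed by more than their pooled SD. The highest group mean was 1.82 times the lowest for Cubn, 1.81 for Lrp2, 1.69 for Clcn5, 1.65 for Fcgrt, 1.58 for Amn, 1.56 for Dab2 and 1.20 for Ocrl. In the orders of the genes other than Lrp2 all neighbours overlapped.

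The genes whose log2(CPM + 1) was most like each member over the 40 libraries, among 12163 genes with a mean of 50 counts or more, were Ipo8 (Pearson r = 0.96), Fbxo22 (0.95) and Hspd1 (0.95) for Lrp2 and Sqor (0.95), Steap2 (0.95) and Nox4 (0.95) for Cubn. For Amn they were Map2k2 (0.91), Ppp6r1 (0.88) and Hpn (0.87), for Dab2 Clint1 (0.95), St13 (0.90) and Nono (0.89), and for Clcn5 Tm9sf3, Uhmk1 and Etfa (0.98 each). For Ocrl they were Fcho2 (0.77), Pias1 (0.76) and Pcgf3 (0.75), and for Fcgrt Cyba (0.91), Slc38a10 (0.90) and Grhpr (0.90). These are descriptions over libraries that share groups and arms. The correlation of Lrp2 with Cubn over the same libraries was 0.64, and that of Amn with Cubn 0.07.

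Genes that work with the 7 were read in the fit of all 40 libraries (Akita against WT), where 22.8% of all genes passed, 1952 of them higher and 2093 lower. Of 5 partners tested, 2 were higher and 2 lower. Lrpap1, the chaperone that shields megalin in the secretory pathway, was lower at −0.36 (adjusted p = 0.000311), from 254 ± 23.5 CPM in WT to 198 ± 16.4 CPM in Akita mice on the ethanol vehicle (n = 5 each). Mesd, a chaperone of the LDL receptor family, was lower at −0.21 (0.0476). The adaptor Gipc1 was higher at 0.23 (0.0133), and B2m, the light chain of the neonatal Fc receptor, was at 0.20 (0.228). Thus Lrp2, its chaperone Lrpap1 and Fcgrt were lower in the same fit, while B2m did not pass the test.

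In the same fit, where 22.8% of all genes passed and 11.8% were lower, 1 of 18 genes of the clathrin coat was higher and 0 lower (median −0.00036). The higher one was Hip1r at 0.28 (adjusted p = 0.000120). With MitoGamide 4 of the 18 were higher and 0 lower, where 1286 of 16674 genes were higher and 14.3% were called in either direction. The 4 were Hip1r at 0.39, Ap2s1 at 0.31, Ap2m1 at 0.25 and Cltb at 0.24 (adjusted p 0.0125 to 0.0483). Of the same 18, 1 was higher on the ethanol vehicle, where 1451 of 17747 genes were higher. On water and with MitoQ 0 passed, where 0.552% and 0.557% of all genes did. In the fit of all 40 libraries, 0 of 22 genes of endosome traffic were higher and 1 lower (median 0.02), where 22.8% of all genes passed. The lower one was Rab38 at −0.73 (2.75e-05), a small GTPase. It fell from 5.87 ± 0.602 to 3.62 ± 0.455 CPM on the ethanol vehicle. Beside 22.8% of all genes called and 11.8% lower, 1 of 21 genes of the proton pump and endosomal ion transport was higher (Atp6v1g1, 0.22, adjusted p = 0.0322) and 4 were lower (median 0.01). The lower ones were the exchanger Slc9a8 at −0.9997 (1.63e-10), the pump subunit Atp6v0a2 at −0.22 (0.0105) and Clcn4 at −0.24 (0.0283) and Clcn3 at −0.26 (0.0305), both of the chloride channel family of Clcn5. Slc9a8 was also lower in each of the 4 settings, with log2 fold changes of −0.81, −0.93, −1.11 and −1.10 (adjusted p 0.000488 to 0.0465).

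The remaining lists are from the same fit of all 40 libraries, where 22.8% of all genes passed and 11.8% were lower. Of 13 genes of the LDL receptor family other than Lrp2 3 were higher (Lrp5 at 0.23, Lrp4 at 0.27 and Lrp1 at 0.31, adjusted p 0.000264 to 0.00455) and 1 lower (Lrp12 at −0.44, 0.00105), with a median of 0.08. Of 16 lysosomal genes 1 was higher (Lgmn at 0.33, 0.0116) and 3 lower (among them Ctsh at −0.30, 0.0169), with a median of 0.03. Of 12 tested transcripts of proteins that megalin and cubilin are known to bind, 6 were higher and 2 lower (median 0.36). The metallothioneins Mt1 (1.78, adjusted p = 3.97e-11) and Mt2 (1.84, 3.64e-10), clusterin (Clu, 0.49, 9.38e-05) and the vitamin D binding protein Gc (1.52, 0.000119) were higher, and apolipoprotein H (Apoh, −2.51, 4.45e-12) and transthyretin (Ttr, −0.98, 0.000618) lower. These are transcripts of the cortex, and the filtered proteins themselves were not measured. Among Akita mice Gc varied widely, at 34.8 ± 25.1 CPM (mean ± SD) on the ethanol vehicle and 54.9 ± 65.1 CPM with MitoGamide. It was at 51.4 ± 48.4 CPM on water and 32.2 ± 38.4 CPM with MitoQ. By setting, its log2 fold changes were 1.31, 1.86, 1.65 and 1.26 in the same order. The edgeR adjusted p was 0.0247, 0.0513, 0.382 and 0.529, so that Gc passed on the ethanol vehicle alone.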

How the data were processed

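The renal cortex of 40 mice was profiled by sequencing of total RNA depleted of ribosomal RNA (directional libraries, single reads), with 5 mice in each of 8 groups taken from the sample labels. The authors trimmed the reads, quantified them with kallisto 0.46.1 against GENCODE mouse transcripts and summed the transcripts to genes in R 4.0.2 (GRCm38). The deposited values are estimated counts per gene, which were whole numbers and were used as deposited for 55401 genes. Of the gene identifiers, 54349 (98.1%) matched the reference annotation with their version. Total counts were 9106654 to 24321424 per library.

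Each comparison was fitted across all genes with edgeR 4.0.16 (quasi-likelihood test, R 4.3.3) after a filter of a mean of 10 counts and TMM scaling, with Benjamini-Hochberg adjustment over all genes tested and a threshold of 0.05. The authors' own test was DESeq2, which was run here (1.42.0) as an alternative. Other alternatives were RLE scaling, no filter, 10 counts in every library, a replicate block, a fit of all 40 libraries, and leaving out each library or each treatment. Added after the data were seen were the olfactory receptor share as a covariate, leaving out libraries with over 40% mitochondrial counts, and the ratio of Lrp2 to Cubn counts, given with no test. The members, gene lists and tests were chosen with earlier results of these data known. All 7 members are named. From each pathway list, up to 4 genes past the threshold per direction in the fit of all 40 libraries were named, in order of p, with B2m and Lrpap1 whatever their values. Some genes that this rule names are not reported here. On simulated counts of 17527 genes modelled on the ethanol vehicle comparison, 99% of genes changed by a log2 of 1 and 76% of those changed by 0.5 were recovered. The labels number the replicates of each group. Each replicate was taken as an individual mouse, so that p-values measure the spread between animals.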

Additional observations from a re-analysis of the deposited data

Results flagged for a closer look

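In 64 sets of 5 values (the 7 genes and the Lrp2 to Cubn ratio in 8 groups), 6 held a library that stood apart from the other 4 by Dixon's 95% criterion. Chance flags about 1 set in 20, or 3.2 of 64. In Akita mice with MitoGamide, replicate 5 had 1776 CPM of Cubn against 1258 to 1404 in the others, and a ratio of 2.07 against 3.22 to 3.65. Replicate 4 of that group had 178 CPM of Clcn5 against 157 to 162. In Akita mice on the ethanol vehicle, replicate 3 had 367 CPM of Dab2 against 328 to 337. Ocrl was at 14.99 CPM in WT ethanol replicate 4 against 16.8 to 17.6, and at 22.4 CPM in WT MitoGamide replicate 1 against 16.7 to 17.7.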

How the results depend on the processing

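Of 1260 log2 fold changes of single genes refitted without 1 library, 1158 kept their direction and side of the threshold, 32 lost and 4 gained a call and 66 changed sign. Of 658 under other alternatives, 601 kept both, 22 lost and 6 gained a call and 29 changed sign. The cause was not tested.

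On the ethanol vehicle the number of members called was 1 without a filter (2474 genes called), 0 in the fit of all 40 libraries (844) and 1 to 2 without 1 library. Akita against WT with MitoGamide gave 0 in the fit of all 40 libraries (2011 genes called) and with the covariate (111), and 0 to 2 without 1 library. MitoGamide in Akita mice gave 1 by DESeq2 (1069 genes called) and 0 to 2 without 1 library. The genotype comparison over 40 libraries gave 0 without a filter (3607 genes called) or without the ethanol mice (2397), 1 without the MitoGamide mice (2412) and 2 to 3 without 1 library. The vehicle comparison gave 0 with the covariate (0 genes called), 1 without the libraries over 40% mitochondrial counts (3133) and 3 to 5 without 1 library. The ratio difference with MitoQ was −0.49 without those libraries and −0.49 to −0.24 without 1 library, and that of MitoGamide in Akita mice −0.21 to 0.016. Scaled by library totals, the levels were 392 CPM for Dab2 and 199.7 for Clcn5 in WT ethanol, and 18.5 and 17.9 for Ocrl in Akita ethanol and Akita MitoQ.

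The replicate numbers did not pair the libraries, with correlations of same-numbered libraries from −0.610 to 0.738 (median −0.0048). With the replicate block the number of members called stayed at 2 on the ethanol vehicle, where Clcn5 lost (adjusted p = 0.0526) and Fcgrt gained (0.0422) its call, and 2566 genes were called against 2910. It was 32 against 101 on water, 48 against 101 with MitoQ and 0 against 214 for MitoGamide in Akita mice.

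Apart from the fits without 1 library, the number of genes called ranged from 2397 to 4807 over 40 libraries (4045), 844 to 3116 on the ethanol vehicle (2910), 111 to 3082 with MitoGamide (2386), 12 to 547 on water (101), 48 to 415 with MitoQ (101), 0 to 8809 between vehicles (8267) and 0 to 1069 for MitoGamide in Akita mice (214). Without 1 library they ranged from 3781 to 4381, 2170 to 2787, 1248 (without WT MitoGamide replicate 2) to 2822, 32 (without Akita water replicate 4) to 94, 35 (without Akita MitoQ replicate 5) to 270 (without WT MitoQ replicate 3), 5944 to 10039 and 0 (without Akita ethanol replicate 1, among others) to 802 (without Akita MitoGamide replicate 5), in the same order.

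No sign change concerned a called gene, apart from Cubn and Fcgrt between vehicles. With the covariate, log2 fold changes were −0.0089 (Cubn), −0.13 (Amn) and −0.0074 (Fcgrt) between vehicles, 0.0060 (Clcn5) on water, −0.11 (Clcn5) for MitoGamide and 0.028 (Cubn) for MitoQ in Akita mice and −0.018 (Clcn5) for MitoGamide by genotype. Without libraries over 40% mitochondrial counts they were 0.084 (Lrp2) and 0.25 (Clcn5) on water, −0.16 (Clcn5) and 0.049 (Ocrl) for genotype with MitoQ, −0.16 (Lrp2), −0.090 (Dab2), −0.0295 (Clcn5) and −0.14 (Fcgrt) for MitoQ in Akita mice and −0.38 (Clcn5) for MitoQ by genotype. Ocrl for genotype with MitoGamide was at −0.0054 (DESeq2), −0.0050 (RLE), −0.024 (10 counts in every library), −0.0027 (block) and −0.028 (fit of all 40), and for genotype with MitoQ at 0.0089 (no filter). For MitoGamide in Akita mice Ocrl was at −0.0021 (no filter), −0.020 (10 counts in every library), −0.0145 (block) and −0.0042 (fit of all 40), and with 10 counts in every library Dab2 was at −0.00096 and Clcn5 at −0.0036. Cubn for MitoQ in Akita mice was at 0.0045 with the block.

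Without 1 library, values that changed sign ranged as follows. For genotype they were −0.12 to 0.086 (Ocrl) with MitoGamide, −0.35 to 0.025 (Lrp2), −0.043 to 0.23 (Dab2) and −0.23 to 0.29 (Clcn5) on water, and −0.16 to 0.17 (Clcn5) and −0.075 to 0.049 (Ocrl) with MitoQ. For MitoGamide they were −0.10 to 0.086 (Cubn), −0.059 to 0.065 (Dab2), −0.025 to 0.055 (Clcn5) and −0.11 to 0.062 (Ocrl) in Akita and −0.064 to 0.0028 (Lrp2) in WT mice. For MitoQ they were −0.057 to 0.26 (Lrp2), −0.22 to 0.13 (Cubn), −0.067 to 0.16 (Dab2) and −0.080 to 0.16 (Fcgrt) in Akita and −0.017 to 0.33 (Lrp2) in WT mice. By genotype they were −0.11 to 0.025 (Amn) and −0.12 to 0.057 (Cubn) for MitoGamide and −0.23 to 0.12 (Lrp2) and −0.22 to 0.27 (Clcn5) for MitoQ.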
